A study of Gallus gallus with 24 samples.

Results

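Gene expression in the papilla ectoderm of the adult chicken sickle feather was compared between males and females. Of the 24 libraries of the series, 4 carry the tissue label papilla ectoderm, and they were chosen by that label and by the labelled sex: 2 from males and 2 from females. The males are the birds numbered 53 (male 1) and 68 (male 2), the females those numbered 52 (female 1) and 120 (female 2), and each bird gave 1 library of this tissue. All were adult chickens with no treatment in the labels. The labels and protocols give no breed, exact age or hormonal state. The other 20 libraries came from 5 further parts of the same follicles of the same birds: lower and upper follicle sheath, pulp, collar epithelium and dermal papilla. They helped to estimate the spread between libraries. RNA was extracted with TRIzol, and polyadenylated transcripts were sequenced.

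Sickle feathers are the long curved tail feathers that differ in form between cocks and hens. The papilla ectoderm is the epithelium that covers the dermal papilla at the base of the follicle. The dermal papilla signals to this epithelium during feather regrowth, and the collar above it holds the proliferating cells that build the feather. In birds the female carries a Z and a W chromosome and the male a pair of Z chromosomes, and the higher dose of Z-linked genes in males is only partly evened out. The deposited files name genes by Ensembl identifier and do not pair them with symbols, and no identifier matched the reference table. Genes are therefore described by level, by direction and by the tissue in which they were most abundant, without a symbol, chromosome or role, and no sequence is shown.

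The 4 libraries held 12514383 (female 1), 18036228 (female 2), 20344033 (male 1) and 31404619 counts (male 2). Levels are given as CPM, each count divided by the library total after TMM adjustment and put on the usual CPM scale, so that 1 count was worth 0.0435 to 0.0793 CPM. Male 1 stood apart from the other 3. Its Spearman correlations with them over 14077 genes were 0.875 to 0.922, whereas those among the other 3 were 0.950 to 0.961. Of 11980 genes with a mean of at least 1 CPM, 1323 differed more than 4-fold between the males and 242 between the females. In 1146 of the 1323, male 2 was the higher bird. The biological coefficient of variation, the spread between libraries of one sex beyond counting error, was 0.502 in papilla ectoderm alone and 0.196 to 0.345 in each of the other 5 tissues. With 2 birds per sex, the smallest p that an exact two-sided permutation test could give for a single value is 0.333. Calls therefore rest on the model fitted over all genes, which shares its spread over all 24 libraries. There the coefficient was 0.336, below the 0.502 of papilla ectoderm alone, so SEs and p-values for this tissue may be too small.

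The label could not be checked against marker genes, and sets defined by identifier in the other tissues were read instead. A set of 20 collar genes, more than 20 times higher in the collar than in pulp and dermal papilla, stood at a median of 0.138% (male 1), 0.219% (male 2), 0.469% (female 1) and 0.0811% (female 2) of their collar level. These collar genes were close to absent from all 4 libraries. The reverse set of 35 connective genes, more than 20 times higher in pulp and dermal papilla than in the collar, stood at 3.73% of their level there in male 1. It stood at 32.1% in male 2, 38.5% in female 1 and 20.4% in female 2. Summed, these 35 genes gave 1056 CPM in male 1 and 11726 to 13318 CPM in the other 3. This set was added after the values were seen. Planned sets, restricted to 1 tissue by a factor of 10, did not set male 1 apart in the same way. The 5 pulp genes had their lowest median in male 1 (0.463%). Summed, they gave 73.7 CPM in male 1, 44.2 in male 2, 38.6 in female 1 and 158 in female 2. The 1 dermal papilla gene stood at 1.81% in male 1, 31.9% in male 2, 21.9% in female 1 and 2.36% in female 2. In bulk tissue, fewer cells of a type and less RNA per cell cannot be told apart.

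The sex labels were read from genes limited to females in the other 5 tissues, where the lowest of 10 female libraries exceeded 5 times the highest of 10 male libraries. There were 35 such genes, and the papilla ectoderm libraries took no part in choosing them. Together they reached 1045 CPM in female 1 and 1259 CPM in female 2, against 2.15 CPM in male 1 and 8.78 CPM in male 2. Both females were also above both males in each of the 35 genes, as in 16.9% of all genes tested. Of the 35, 34 were called female-higher by the test described below, beside 1.24% of all genes tested. The males' sums, from 30 and 202 counts, were above the 0.12 to 0.975 CPM of the 10 male libraries of other tissues. Male 1 had counts in 9 of the 35 genes and male 2 in 22, and in these 22 male 2 was the higher male. The summed male level was 0.186% of the female mean in male 1 and 0.762% in male 2. Among the 14 of these genes above 20 CPM in both females, the share ran from 0% to 0.525% in male 1 and from 0% to 1.72% in male 2.

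The most abundant of them in this tissue, ENSGALG00000022674.2, stood at 0.43 CPM in male 1, 2.30 in male 2, 185 in female 1 and 326 in female 2. ENSGALG00000014366.4 stood at 0.286 and 1.30 CPM in the males and at 118 and 149 in the females. The sexes did not overlap in either gene. The log2 differences, male minus female, were -7.46 ± 0.63 (SE, adjusted p = 0.000195) and -7.28 ± 0.53 (adjusted p = 3.57e-06, edgeR's quasi-likelihood test).

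Across the 14077 genes tested, 112 were higher in males and 175 in females by edgeR's quasi-likelihood test at an adjusted p below 0.05. These are 0.796% and 1.24% of the genes, or 2.04% together. Of the 175 female-higher genes, 34 were female-limited and 141 were not. By the same model 56 to 134 genes were called in each of the other 5 tissues, and whether the number itself differs between tissues was not tested. In all 287 called genes both birds of one sex were above both of the other, a pattern that 33.2% of all genes tested showed. The scaling moved the balance between the sexes: with library totals in place of TMM factors the median log2 difference of all genes moved from 0.05 to -0.37, and 55 genes were male-higher and 810 female-higher.

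**Figure D1:**
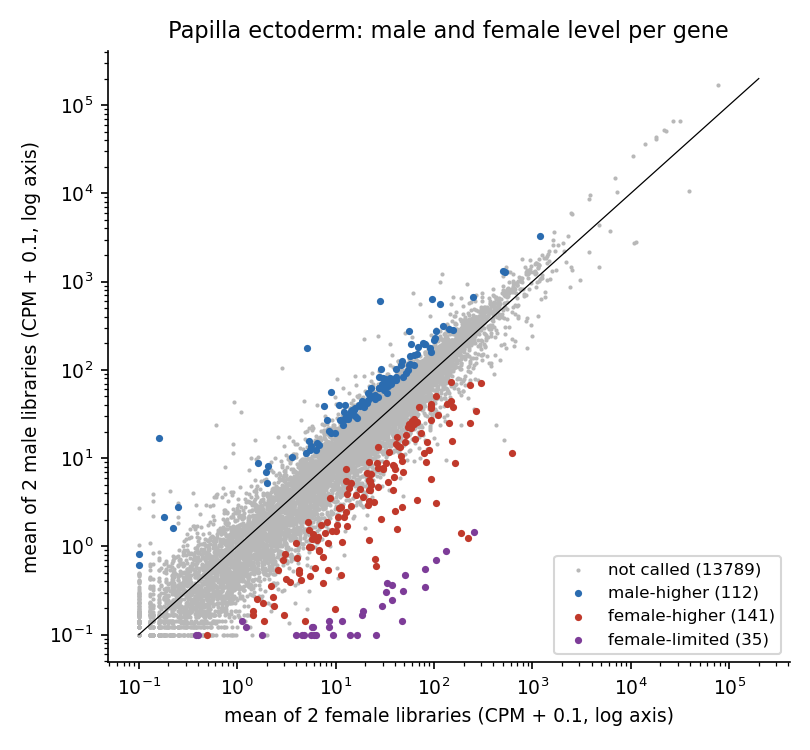
Each point is 1 of 14077 genes, with the mean of the 2 female libraries on the horizontal axis and of the 2 male libraries on the vertical axis (CPM + 0.1, log axes); the line marks equal levels. Most of the 112 male-higher genes lie in a band close above the line, and 15 of them have a log2 difference of 2 or more. The 141 female-higher genes are scattered further below the line, and the 35 female-limited genes lie along the bottom.

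Most male-higher genes differed by a similar amount. Their log2 differences ran from 0.71 to 7.85 with a median of 1.23, the quartiles were 1.05 and 1.42, and 15 of the 112 were at 2 or more, of which 8 differed more than 8-fold. Their mean level over both sexes ran from 0.256 to 2243 CPM with a median of 44.5 CPM, and 32 of them exceeded 100 CPM in the higher sex. The males differed more than 2-fold from each other in few of them: male 1 was the higher in 9 and male 2 in 5. Of the 112 genes, 70 had their highest level among the other 5 tissues in the collar epithelium. That is 1.43% of the 4900 collar-peaking genes, beside 0.796% of all genes, and 0.232% to 0.607% of those peaking in each of the other 4 tissues.

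Among male-higher genes that kept their call whichever library was left out, the largest difference was that of ENSGALG00000013072.2. It stood at 211 CPM in male 1, 343 in male 2, 49.95 in female 1 and 61.9 in female 2. Both males were more than 3 times above either female, and the means were 277 ± 93.4 and 55.9 ± 8.45 CPM (SD, n = 2). The log2 difference was 2.31 ± 0.31 (SE, adjusted p = 0.000823). In pulp the gene stood at 882 and 556 CPM in males and at 69.8 and 50.5 in females (log2 difference 3.58, adjusted p = 1.26e-05), and in dermal papilla at 157 and 154 against 54.1 and 33.5 (1.82, adjusted p = 0.00874). In the sheaths and the collar its differences of 0.36 to 0.68 missed the threshold. The second, ENSGALG00000027295.1, was a low-level gene at 5.87 and 7.78 CPM in the males and 2.06 and 1.64 in the females (log2 difference 1.89 ± 0.30, adjusted p = 0.00342). Its differences in the other 5 tissues, 0.31 to 1.20, all missed the threshold. No overlap of the sexes was a condition for naming both genes. For neither gene did the sex difference here pass a test against the mean of the other 5 tissues (adjusted p = 0.309 and 0.25, edgeR's quasi-likelihood test). Both genes lost their call when papilla ectoderm was given its own spread (limma voom with a weight per tissue, adjusted p = 0.102 and 0.31).

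The female-higher genes outside the female-limited set differed by more and less evenly. Their median log2 difference, male minus female, was -2.42, the quartiles were -3.30 and -1.81, and 45 of the 141 differed more than 8-fold. Their median level was 13.6 CPM. The birds of one sex also differed in them: male 2 was more than 2-fold above male 1 in 82 of the 141 and female 1 more than 2-fold above female 2 in 48. Male 2 was above male 1 in 126, against 51.6% of the remaining genes. Female 1 was above female 2 in 118, against 47.7% of all genes. Of the 141 genes, 73 had their highest level among the other tissues in the pulp, which is 2.69% of the 2715 pulp-peaking genes. A further 33 peaked in the lower sheath, 1.92% of its 1722 genes, and 10 in the collar, 0.204% of its 4900. Over all genes the share was 1%.

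The connective set was lowest in male 1. Of its 35 genes 0 were called in either direction, beside 2.04% of all genes tested. At that share, 0 calls in a set of this size carry little weight. Its median log2 difference was -0.67, with 6 genes above 0, and over all genes tested the median was 0.05. Without male 1, 51 genes were female-higher, 46 of them among the 175, and 11 pulp-peaking genes outside the female-limited set were called, against 73 with all libraries. These 11 were 0.405% of the pulp-peaking genes, beside 0.0408% to 0.116% of those peaking in each of the other 4 tissues. Male-higher genes then numbered 156, of which 61 were among the 112. They made up 1.2% of the collar-peaking genes (59 genes), 1.9% of the dermal papilla-peaking genes (47 genes) and 0.441% to 0.987% of the rest, so the collar no longer had the highest share. The fall in female-higher calls was not particular to pulp-peaking genes. Leaving the female-limited set aside, they also became fewer among genes peaking in each of the other 4 tissues. Dropping female 1, the bird with the highest median of the connective set, cost as many of the 141 calls as dropping male 1. Either fit kept 1 library of one sex, so it cannot separate connective tissue RNA from the loss of a bird. The part of connective tissue RNA in the sex difference was therefore not tested.

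Of the female-higher genes that kept their call without any one library, ENSGALG00000002318.4 differed most. It stood at 0.143 CPM in male 1 and 2.17 in male 2, against 388 in female 1 and 52.2 in female 2. The females were far above the males but also differed widely from each other. The log2 difference was -7.45 ± 1.13 (SE, adjusted p = 0.00245). In pulp it was -5.68 (adjusted p = 0.0149), with 1.48 and 0.989 CPM in males and 91.4 and 34.7 in females. In the sheaths all libraries held 75.4 to 151 CPM, with log2 differences of 0.41 and -0.08 that missed the threshold. A test of its sex difference here against the mean of the other 5 tissues missed it as well (adjusted p = 0.168, edgeR's quasi-likelihood test). ENSGALG00000013922.3 was steadier, at 0.644 and 2.0 CPM in the males and 169 and 209 in the females (log2 difference -7.09 ± 0.99, adjusted p = 0.00121), and it was called female-higher in the other 5 tissues too, at -4.95 to -8.40. Under a spread of its own for papilla ectoderm both missed the threshold (adjusted p = 0.607 and 0.306).

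**Figure D2:**
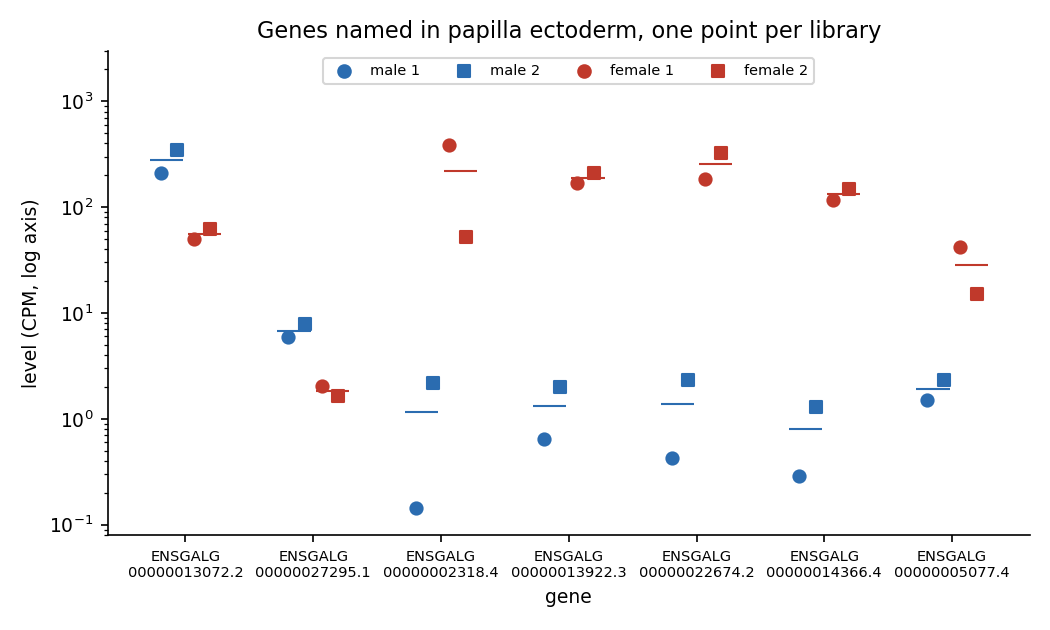
Level of each gene named in this tissue (CPM, log axis), with 1 point per library (males blue, females red; circles for bird 1, squares for bird 2) and a line at the mean of each sex. The sexes do not overlap in any of the 7 genes, which the naming rule required of the male-higher and female-higher ones. The widest gap between birds of one sex is that of ENSGALG00000002318.4, at 0.143 and 2.17 CPM in the males.

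The most abundant transcripts of the tissue were also higher in both males, without passing the test. The 10 genes with the highest mean level took 37.8% of all counts in male 1, 42.4% in male 2, 22.9% in female 1 and 30.7% in female 2. In the other 5 tissues the same 10 genes took 3.799% to 11.6%. In 9 of the 10 both males were above both females, as in 16.3% of all genes tested. These 9 have identifiers close in number and varied together: in each, female 1 was the lowest bird and female 2 the next. Summed, they gave 154302 CPM in female 1, 329967 in female 2, 533346 in male 1 and 574099 in male 2. They are therefore not 9 independent observations, and the share over all genes is no measure for them. The log2 differences of these 9 were 1.05 to 1.38, with adjusted p-values of 0.0811 to 0.192 by edgeR's quasi-likelihood test. DESeq2 called all 9, among 346 male-higher genes of 14077. The most abundant, ENSGALG00000018373.1, named after its values were seen, stood at 157330 CPM in male 1, 181857 in male 2, 51091 in female 1 and 104459 in female 2. Its log2 difference was 1.12 ± 0.42 (SE, adjusted p = 0.192), and in the other tissues its differences lay between -0.76 and 0.20. The tests of its sex difference here against that in the other tissues, and of those of the other 8 genes, gave adjusted p-values of 0.249 to 0.324. The remaining gene of the 10, ENSGALG00000026592.1 at rank 9, was also named after its values were seen. It stood at 72712 CPM in female 1 and at 4073 to 17026 CPM in the other 3 birds. Whether any of the 10 shares reads with other gene copies could not be checked by identifier. Leaving the 10 genes out of library sizes and scaling gave 116 male-higher and 174 female-higher genes, with 112 and 174 of the original calls kept.

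**Figure D3:**
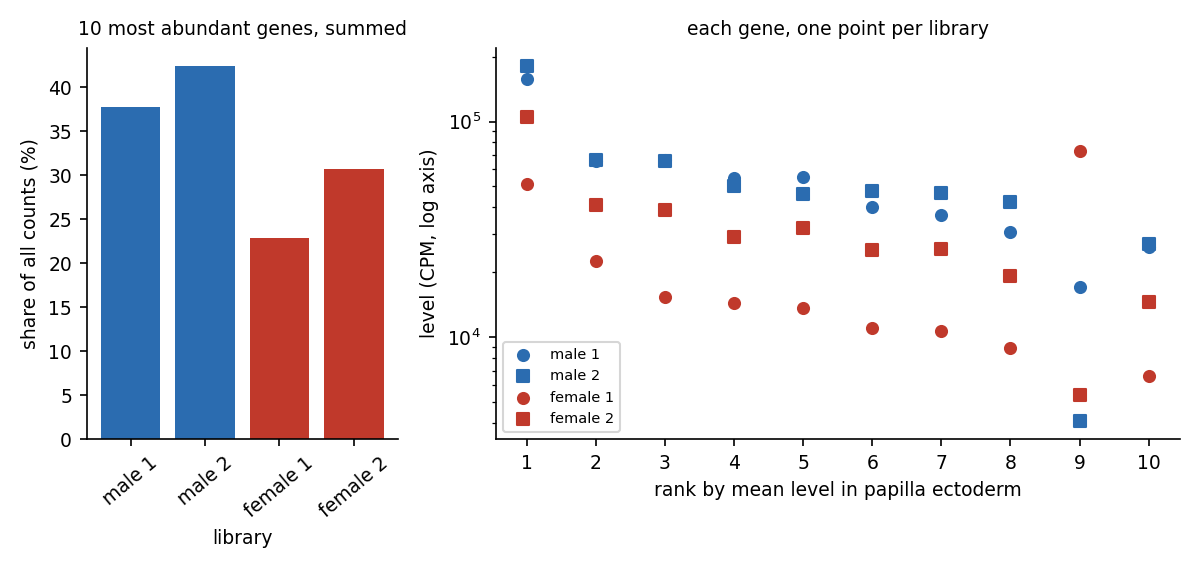
Left, share of all counts taken by the 10 most abundant genes in each papilla ectoderm library (%), highest in the males at 37.8% and 42.4%. Right, level of each of these genes by rank (CPM, log axis), with 1 point per library: in all but rank 9 both males lie above both females.

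How far each call depended on a given library was read by leaving out each of the 4 libraries in turn. Each such fit kept a single papilla ectoderm library of one sex, so a kept call still rested on that bird. The spread within that sex in papilla ectoderm was then not measured. Of the 112 male-higher genes, 14 were called in all 4 of these fits, 27 in 3, 32 in 2 and 39 in 1. Of the 141 female-higher genes outside the female-limited set, 9 were called in all 4, 6 in 3, 97 in 2, 27 in 1 and 2 in none. Of the 34 female-limited calls 31 held in all 4. These 54 genes are 0.384% of all genes tested. Leaving out female 1 lost the call of 97 male-higher genes and of 127 among the 141. Dropping male 1 cost 51 and 127 calls, dropping female 2 cost 50 and 28, and dropping male 2 cost 10 and 7. The counts were 16 and 46 (male-higher, female-higher) without female 1, 117 and 298 without female 2, 156 and 51 without male 1, and 884 and 1919 without male 2. With the 4 libraries alone edgeR called 0 genes, with 483 of 12525 genes (3.86%) at an unadjusted p below 0.05. DESeq2 on all 24 libraries called 346 and 504. With a spread of its own for papilla ectoderm, limma voom called 2 and 31.

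**Figure D4:**
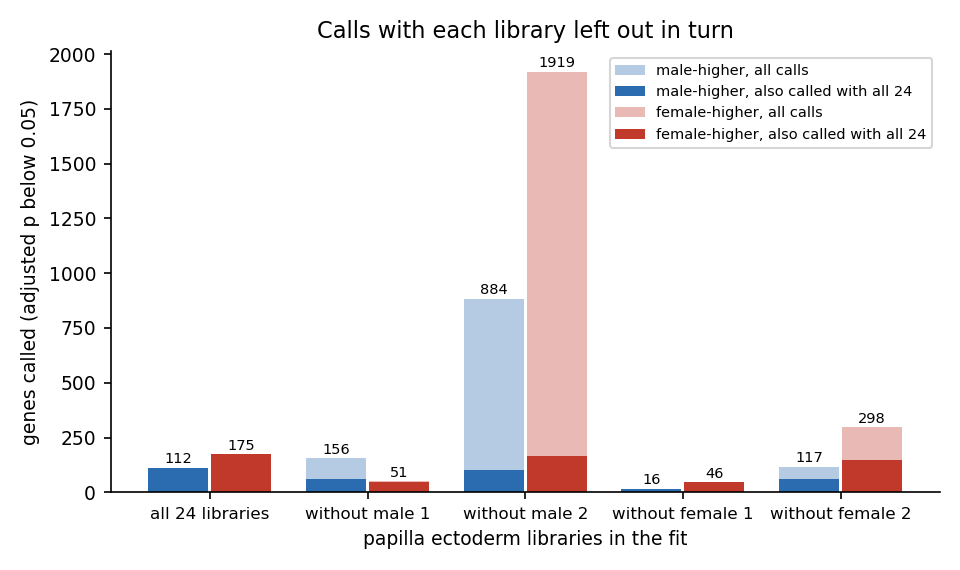
Number of genes called male-higher (blue) and female-higher (red) with all 24 libraries and with each papilla ectoderm library left out; the dark part of a bar is the number also called with all 24. Without male 2 the calls reach 884 and 1919, and without female 1 they fall to 16 and 46.

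The 14 male-higher genes that kept their call had log2 differences above 0 in every tissue measured. Their log2 differences in papilla ectoderm were 0.95 to 2.31 with a median of 1.30, which corresponds to ratios of mean levels of 1.93 to 4.96. In the other tissues the medians were 0.88 (lower sheath), 0.86 (upper sheath), 0.90 (pulp), 0.40 (collar epithelium) and 0.88 (dermal papilla). Of the 14, 2 were called in the collar, 4 in the lower sheath, 5 in the upper sheath, 6 in the dermal papilla and 9 in the pulp. The shares of all genes called male-higher were 0.17%, 0.185%, 0.298%, 0.135% and 0.483% in the same order. The birds are the same in all tissues, so these values are not independent of the choice of the genes. Over all genes the median lay between -0.09 and 0.05 in the 6 tissues.

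The 9 female-higher genes outside the female-limited set that kept their call showed no such evenness. Their medians, male minus female, were -3.88 in papilla ectoderm, -0.17 in the lower sheath, -0.72 in the upper sheath, -1.05 in the pulp, -0.46 in the collar and -1.27 in the dermal papilla. In the lower sheath 3 of the 9 were above 0, and in the collar 2. The numbers called female-higher there were 1 in the lower sheath, 1 in the upper sheath, 4 in the pulp, 3 in the collar and 1 in the dermal papilla. The single call in both sheaths and in the dermal papilla was the same gene, ENSGALG00000013922.3, which was also among those of the pulp and collar. The shares of all genes called female-higher were 0.298%, 0.291%, 0.469%, 0.76% and 0.263% in the same order. Unlike the 9, these shares include female-limited genes, which made up 33 to 34 of the 37 to 107 calls in each tissue.

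**Figure D5:**
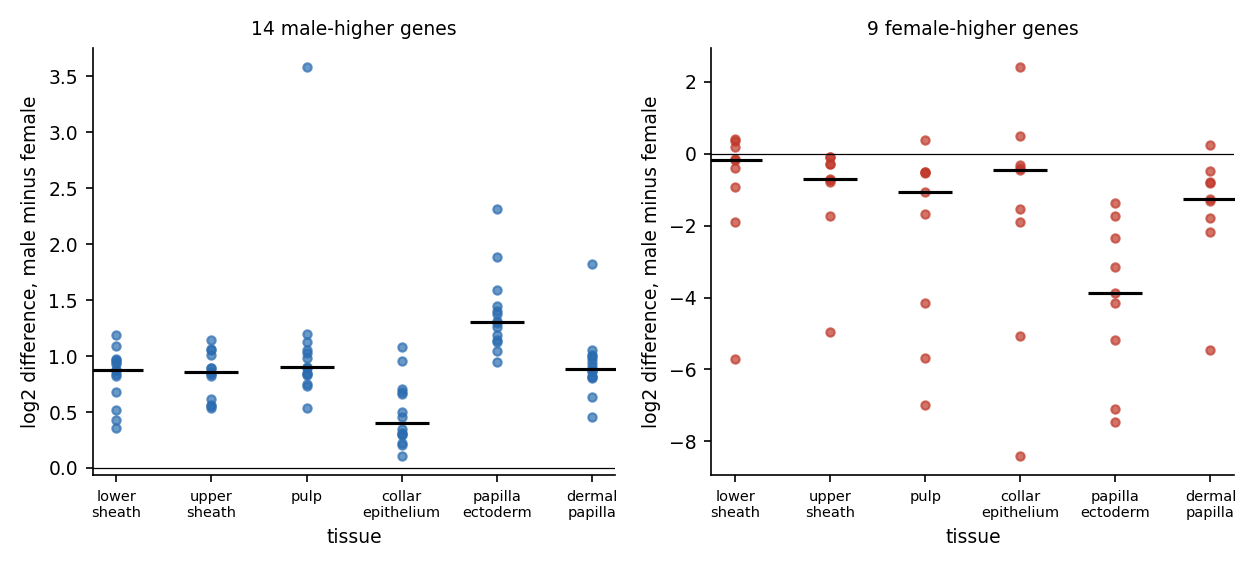
Log2 difference between the sexes, male minus female, in each of 6 tissues for the 14 male-higher genes (left) and the 9 female-higher genes outside the female-limited set (right) called in papilla ectoderm in every leave-one-out fit; points are genes and bars are medians. Differences at papilla ectoderm were fixed by the choice; elsewhere the male-higher genes keep medians of 0.40 to 0.90, while the female-higher genes spread on both sides of 0 in 4 of the other 5 tissues.

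The 112 male-higher genes had median log2 differences of 0.75, 0.77, 0.85, 0.35 and 0.83 in lower sheath, upper sheath, pulp, collar and dermal papilla, and 30 of them were called male-higher in the pulp, where the share over all genes was 0.483%. The 141 female-higher genes had medians of 0.05, -0.28, -0.59, -0.47 and -0.51 in the same order, closer to 0 than those of the 9 in all but the collar. Of the 141, 1 to 10 were called female-higher in each of these tissues, beside 0.263% to 0.76% of all genes. Those shares again include the female-limited genes and would be lower without them. Of the 141, 1 was called male-higher in the pulp and 1 in the collar. The sexes were also compared outside papilla ectoderm with the counts of the other 5 tissues summed per bird, the bird being the replicate. That test called 50 genes male-higher and 47 female-higher of 14486 (0.345% and 0.324%, or 0.67% together). Of the 50, 8 were called male-higher in papilla ectoderm, 45 had a log2 difference above 0 there, and the median was 1.54. Over all 14077 genes 0.796% were called male-higher and 7543 were above 0. In 23 of the 50 both males were above both females in papilla ectoderm, as in 16.3% of all genes tested. Of the 14 female-higher genes outside the female-limited set, 4 were called female-higher in papilla ectoderm, and the median was -2.28. Calls of this kind outside the female-limited set made up 1% of all genes there. In 7 of the 14 both females were above both males, as in 16.9% of all genes tested. The birds are the same in both comparisons, so these values are not independent.

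Whether the sex difference of a gene was particular to papilla ectoderm was tested against the mean of its sex differences in the other 5 tissues, in the same model. Of 14077 genes 6 passed (0.0426%), with 1799 genes (12.8%) at an unadjusted p below 0.05. Of these 6 genes, 5 were female-limited, and their female excess was smaller in papilla ectoderm. ENSGALG00000000386.3 stood at 0.43 and 0.478 CPM in the males (17 counts) and at 81.9 and 81.7 in the females. The 10 male libraries of other tissues had 9 counts in all and at most 0.078 CPM, and their female counterparts 90.6 to 358 CPM. The difference of differences was 4.68 ± 0.52 on the log2 scale (SE, adjusted p = 0.00371). ENSGALG00000029162.1 stood at 0.143 and 0.609 CPM in the males (16 counts), at 57.6 and 44.6 in the females, and had 2 counts in the other male libraries (5.90 ± 0.64, adjusted p = 0.00913). Both values rest on few male counts, and their size depends on how the model treats libraries with 0 counts. Both genes are themselves part of the summed level of female-limited genes, which was higher in these 2 males than in the male libraries of other tissues. The origin of that higher level was not tested.

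The sixth gene, ENSGALG00000005077.4, showed a female excess in papilla ectoderm beyond the mean of the other tissues. It stood at 1.504 CPM in male 1, 2.35 in male 2, 42.3 in female 1 and 15.1 in female 2, with no overlap of the sexes. In papilla ectoderm the log2 difference was -3.88 ± 0.52 (SE, adjusted p = 0.000747). In the lower sheath it stood at 32.7 and 20.3 CPM in males and at 26.9 and 19.6 in females, and in dermal papilla at 23.3 and 12.97 against 26.9 and 37.4. In none of the other 5 tissues did its sex difference pass the threshold. The log2 differences were -1.05 in pulp, -0.82 in dermal papilla, -0.74 in the upper sheath and 0.19 in the lower sheath. The 2.41 in the collar came from 7 male counts and 1 female count, and it raised the mean of the other tissues. The difference of differences was -3.87 ± 0.58 (adjusted p = 0.0183). With the bird as a block, since every bird gave all tissues, it was -3.76 and missed the threshold (adjusted p = 0.0525), so that no negative difference was called. It also missed it without female 1 (adjusted p = 0.0952) or male 1 (0.0891).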

How the data were processed

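Each deposited file gives unnormalized counts for 17108 Ensembl gene identifiers, per the file headers. The authors used STAR 2.4.1d, HTSeq 0.6.0, edgeR and the galGal4 build, per the submitters' processing notes; the annotation release, strandedness and read filtering are not stated there. None (0) of the identifiers matched the reference table of 25635 genes, so planned lists of named genes and markers were not used.

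The members and lists were chosen with earlier results of these data known. Tests ran in edgeR 4.0.16 under R 4.3.3 (glmQLFit and glmQLFTest): TMM scaling, filterByExpr (minimum count 10; 3031 genes with 0.00878% of counts left out), 1 mean for each of 12 groups of sex and tissue, 24 libraries, 12 residual degrees of freedom, and Benjamini-Hochberg adjustment over 14077 genes. SEs were computed from the F statistic; SDs are over libraries. Alternatives used DESeq2 1.42.0 and limma 3.58.1. The scripts were tested on simulated data. Tissues are paired by bird per the labels; deviations of papilla ectoderm from the sex mean correlated with those of the same bird's other tissues (r across genes 0.317 in males, 0.162 in females). The papilla ectoderm libraries of a sex were not copies of one library (median chi-square per gene 34.6 in males, 9.09 in females). P-values of the main fit measure the spread between libraries of the same sex and tissue, shared over all tissues of these birds. That fit had no term for the bird, so libraries of the same bird counted as independent.

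Genes were named by rule: called, no overlap of the sexes, a mean of at least 1 CPM, called in most of the 4 leave-one-out fits, then the largest difference, at most 2 per direction; female-limited genes by level and the difference of differences by p, at most 2 each. ENSGALG00000018373.1 and ENSGALG00000026592.1 were named after their values were seen. The connective and collar sets were also added after the values were seen.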

Additional observations from a re-analysis of the deposited data

Results flagged for a closer look

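The named genes below differed in their sex difference between papilla ectoderm and the other 5 tissues by edgeR's quasi-likelihood test of the difference itself. For ENSGALG00000000386.3 the log2 difference of differences was 4.68 and for ENSGALG00000029162.1 it was 5.90, both female-limited genes with a few counts in the papilla ectoderm of the males. For ENSGALG00000005077.4 it was -3.87, from a female excess in papilla ectoderm and differences short of the threshold elsewhere. That call was lost with the bird as a block (adjusted p = 0.0525) and without female 1 (0.0952) or male 1 (0.0891).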

How the results depend on the processing

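With 2 birds per sex, the calls in papilla ectoderm depended on how the spread was estimated. Against 112 male-higher and 175 female-higher genes, DESeq2 called 346 and 504, the 4 libraries alone 0 and 0, limma voom with a weight per tissue 2 and 31, and library totals 55 and 810. RLE scaling, no filter, robust dispersion, the bird as a random effect (replicate block, 89 and 123) and scaling without the 10 most abundant genes stayed within 1.5 times. Leaving out 1 library gave 16 to 884 male-higher and 46 to 1919 female-higher genes. The causes were not tested.

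For the difference of differences (5 positive, 1 negative), DESeq2 called 63 and 112, RLE scaling 2 negative, library totals 19 negative, and the replicate block, with the bird as a fixed term, 0 negative, with 4 of the 6 genes kept; it changed no other call of a named gene. Leaving out 1 library gave 3 to 614 positive and 0 to 1555 negative. For the sums of the other 5 tissues (50 and 47), DESeq2 called 576 and 258 and no filter 79 male-higher; leaving out 1 bird gave 9 to 51 male-higher and 30 to 65 female-higher. ENSGALG00000022674.2 and ENSGALG00000014366.4 missed the threshold with the 4 libraries alone. The 35 female-limited genes were the same in number with factors of 3 or 10. The planned sets restricted to 1 other tissue held 23 (lower sheath), 1 (upper sheath), 5 (pulp), 10 (collar) and 1 gene (dermal papilla). Those of the sheaths and the collar are given only here. The lower sheath set stood at a median of 0.0435% to 0.238% of its source level in the 4 libraries. With a factor of 5 in place of 10 the mean level here moved from 0.0447% to 1.79% of the source tissue for the upper sheath and from 0.379% to 0.883% for the collar. The dermal papilla set then held 5 genes, at a median of 1.81% in male 1, 31.9% in male 2, 21.9% in female 1 and 2.36% in female 2. In that set female 2 was thus near male 1. For the 16 pulp genes the medians were 1.82%, 4.08%, 6.12% and 10.2% in the same order. Of the named genes all but ENSGALG00000026592.1 were followed through the settings, and none of those followed reversed its direction. Which direction held more calls did change. Female-higher genes outnumbered male-higher ones with all libraries but not without male 1. For the difference of differences, positive calls led in the main fit (5 and 1), but not with DESeq2 (63 and 112) or library totals (6 and 19). Negative calls also led without female 2 and without male 2. The lead in the sums also changed when a bird was left out. The median log2 difference of all genes, 0.05, was -0.37 with library totals and -0.01 with either voom fit. It was -0.02 without male 1 and -0.04 without male 2. Differences in genes with few counts per library were limited by depth.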
